A study of Drosophila melanogaster with 10 samples.

Results

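The genes described here are 10 genes of the Hedgehog signaling pathway, measured by RNA-seq in wing disks of *Drosophila melanogaster*. They were chosen by name and not by a cutoff on a measured value, but with earlier results of these data known. They are the entries of the count table whose FlyBase gene ID carries the symbol *hh*, *disp*, *ptc*, *smo*, *cos*, *fu*, *Su(fu)*, *Pka-C1*, *ci* or *en*. They are 10 of 17807 gene IDs, and all 10 passed the expression filter that kept 9264 genes for testing. Wing imaginal disks of larvae late in the third instar, raised at 25 °C, expressed a transgene under *MS1096-Gal4*, and each RNA sample came from about 70 disks. The 5 groups carried MS1096 > GFP (called GFP disks below), MS1096 > Nkd_GFPC (full-length Nkd), MS1096 > Nkd_del_R1S_GFPC (NkdΔR1S), MS1096 > Nkd_del_30aa_GFPC (NkdΔ30aa) and MS1096 > Nkd_del_D6_GFPC (NkdΔD6). Naked cuticle (Nkd) is an antagonist of Wingless signaling. NkdΔR1S lacks the region that binds Dishevelled, and NkdΔ30aa and NkdΔD6 each lack a stretch examined as a potential nuclear localization signal. All 5 groups share the driver, which is active mainly in the central pouch, so that RNA of a whole disk also comes from cells without the transgene. Each group has 2 samples, called biological duplicates, and nothing states that they came from separate crosses. A p-value here thus rests only on how far samples of the same group lie apart, pooled over the groups fitted and in part over genes. Some of that distance may be technical. In whole disks, fewer cells of a type and less RNA per cell cannot be told apart.

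In the wing disk, posterior cells express the selector gene *engrailed* and secrete the ligand Hedgehog, while anterior cells express the transcription factor Cubitus interruptus. Without ligand, the receptor Patched holds the membrane protein Smoothened inactive, and protein kinase A and its partners mark Cubitus interruptus for processing into a repressor. Hedgehog that reaches anterior cells next to the compartment boundary relieves this block, and full-length Cubitus interruptus then activates targets such as *ptc* itself and *dpp*. The comparisons ask whether overproduced Nkd, and forms of it that lack a region, changed the RNA of these genes.

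The 10 libraries held 18695697 to 20941842 counts, and the counts of the genes described here are high enough (for example 973 to 2626 for *ptc* and 1423 to 2314 for *hh*) for the spread between samples, rather than depth, to set the precision. Of the 8 wing disk markers, 7 were between 15.8 and 312 CPM in every library, while *sna* was at most 0.208 CPM. The summed level of 6 salivary gland glue genes was 15363 CPM in Nkd replicate 1 and 4216 CPM in GFP replicate 1, and 50.2 to 1340 CPM in the other libraries. The other marker lists summed to 488 to 3420 CPM for 6 fat body genes, 81.3 to 368 CPM for 8 larval muscle genes, with both NkdΔ30aa libraries lowest, and 180 to 479 CPM for the male-specific roX RNAs. Some sums moved with the groups. Those of 5 myoblast genes were 78.9 and 92.0 CPM in GFP disks and 101 to 140 CPM in the 8 libraries with an Nkd form, and *Ubx* and *Scr* of other disks summed to 6.53 and 4.37 CPM against 9.64 to 15.4 CPM. The 8 wing disk markers summed to 613 and 851 CPM in GFP disks, 1187 and 1243 CPM in NkdΔ30aa and 758 to 1001 CPM elsewhere, and 8 hemocyte genes to 84.4 to 99.2 CPM in GFP and NkdΔR1S disks and 119 to 193 CPM in the other groups. Libraries also differed in how strongly long genes were counted relative to short ones. The rank correlation of exon length with a gene's departure from its mean over the libraries was lowest in GFP replicates 1 and 2 (-0.616 and -0.479) and highest in those of NkdΔ30aa (0.620 and 0.551). It was 0.00309 and 0.287 for Nkd, -0.426 and -0.0380 for NkdΔR1S, and 0.281 and 0.136 for NkdΔD6. GFP and NkdΔ30aa thus lie at opposite ends of this length trend, which moves with the groups. Values after removing it by an offset for each gene and library (the length offsets) are given beside the results. A difference between groups that long genes share cannot be told apart from this trend, and the offsets would remove either.

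Levels are TMM-normalized CPM, that is, counts scaled to the size of each library, with replicates 1 and 2 of a group in that order. Differences are log2 fold changes from edgeR's quasi-likelihood test with its standard error (SE) and Benjamini-Hochberg adjusted p over the 9264 genes. A gene is said to have risen or fallen only where the fold change was over 1.5 and the adjusted p under 0.05. *nkd* itself was at 37.3 and 70.1 CPM in GFP disks and between 345 and 1498 CPM in the 8 libraries of the other groups. It rose against GFP by log2 4.44 in Nkd (adjusted p = 0.00696), 3.00 in NkdΔR1S (0.0292), 4.64 in NkdΔ30aa (9.83e-04) and 4.45 in NkdΔD6 (0.00654). Its level in NkdΔR1S disks was 345 and 512 CPM, below every library of the other Nkd forms (log2 -1.44 against Nkd, SE 0.32, adjusted p = 0.115).

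**Figure D1:**
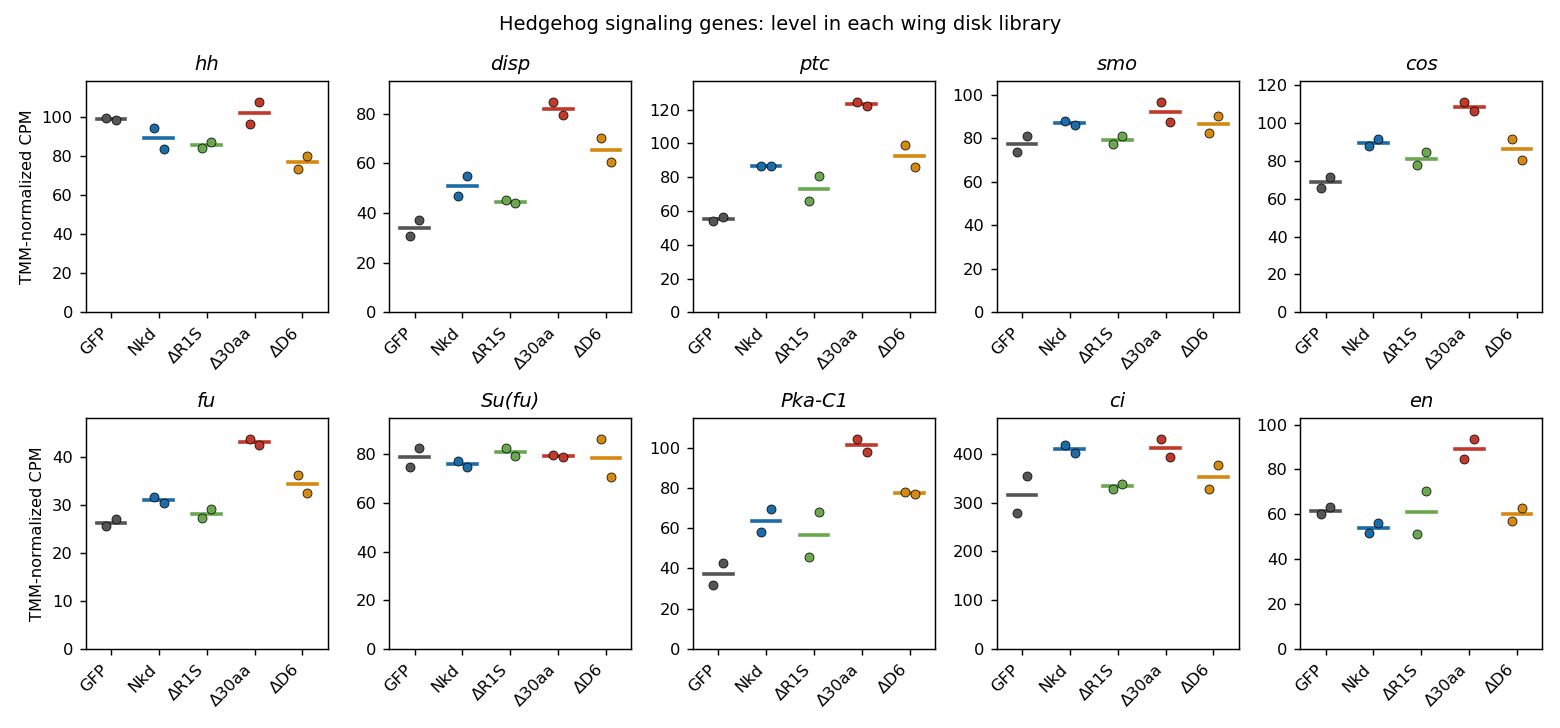
Level of each gene in each library, in TMM-normalized CPM on axes that start at 0 (points, single libraries; lines, mean of 2). *ptc*, *disp*, *Pka-C1*, *cos* and *fu* are highest in both NkdΔ30aa libraries, whereas *hh* and *Su(fu)* vary by at most 1.47-fold over the 10 libraries.

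Hedgehog, the secreted ligand of posterior cells, is encoded by *hh* (FBgn0004644, chromosome 3R from 23128169 to 23141906 of BDGP6, 3 exons, 2370 bases of exon). It was at 99.3 and 98.3 CPM in GFP disks, 94.5 and 83.6 in Nkd, 84.3 and 87.2 in NkdΔR1S, 96.4 and 108 in NkdΔ30aa, and 73.3 and 80.2 in NkdΔD6. Both libraries of Nkd, NkdΔR1S and NkdΔD6 lay below both GFP libraries, and those of NkdΔ30aa overlapped them. The largest difference from GFP was in NkdΔD6, at log2 -0.36 (SE 0.10, adjusted p = 0.0293 by edgeR), which is under the fold threshold. It was -0.31 (adjusted p = 0.056) with the length offsets, and the level of *hh* showed little relation to the length trend of the libraries (Pearson r = -0.06 over 10 libraries that share groups and normalization). Against GFP, *hh* stood at -0.15 in Nkd, -0.20 in NkdΔR1S and 0.05 in NkdΔ30aa, with adjusted p between 0.283 and 0.725.

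Dispatched, which releases lipid-modified Hedgehog from the cells that make it, is encoded by *disp* (FBgn0029088, chromosome 3R from 5849697 to 5856311, 7 exons, 4884 bases of exon). Its level was 30.6 and 37.1 CPM in GFP disks, 46.8 and 55.1 in Nkd, 45.1 and 44.0 in NkdΔR1S, 84.7 and 79.3 in NkdΔ30aa, and 70.2 and 60.7 in NkdΔD6. Every library with an Nkd form lay above both GFP libraries, and the NkdΔ30aa libraries lay above all others. *disp* rose against GFP in Nkd (log2 0.59, SE 0.13, adjusted p = 0.0286), where the fold of 1.503 barely passed the threshold, in NkdΔ30aa (1.27, SE 0.13, adjusted p = 9.83e-04) and in NkdΔD6 (0.95, SE 0.13, adjusted p = 0.00868). In NkdΔR1S the difference was 0.39 (SE 0.13, adjusted p = 0.186). Under the length offsets these values became 0.23, 0.50, 0.50 and 0.15, each under the fold threshold, and *disp* followed the length trend of the libraries at r = 0.95 (n = 10).

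The receptor gene *ptc* (FBgn0003892, chromosome 2R from 8649649 to 8665223, 6 exons, 5521 bases of exon) is itself a target of Hedgehog signaling near the compartment boundary. Its level was 54.0 and 56.4 CPM in GFP disks, 86.5 and 86.4 in Nkd, 65.9 and 80.5 in NkdΔR1S, 124 and 122 in NkdΔ30aa, and 98.9 and 86.3 in NkdΔD6. No library with an Nkd form overlapped the GFP libraries, and both NkdΔ30aa libraries lay above those of every other group. *ptc* rose in Nkd (log2 0.65, SE 0.11, adjusted p = 0.0231), in NkdΔ30aa (1.16, SE 0.11, adjusted p = 9.83e-04) and in NkdΔD6 (0.75, SE 0.11, adjusted p = 0.00945). The difference of 0.41 in NkdΔR1S (SE 0.11, adjusted p = 0.169) did not pass. After removal of the length trend *ptc* stood at 0.24, 0.27 and 0.21 in Nkd, NkdΔ30aa and NkdΔD6 and at 0.09 in NkdΔR1S, all under the fold threshold. Among the 10 genes its level followed the length trend most closely (r = 0.98, n = 10 libraries).

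Smoothened, the membrane protein that Patched inhibits, is encoded by *smo* (FBgn0003444, chromosome 2L from 277582 to 282167, 6 exons, 4008 bases of exon). It was at 73.7 and 81.3 CPM in GFP disks, 88.0 and 86.0 in Nkd, 77.5 and 81.1 in NkdΔR1S, 96.7 and 87.5 in NkdΔ30aa, and 82.6 and 90.4 in NkdΔD6. The libraries of Nkd, NkdΔ30aa and NkdΔD6 lay above those of GFP by small amounts. No difference passed, the largest being 0.25 in NkdΔ30aa (SE 0.10, adjusted p = 0.0614). The length offsets turned its sign in all 4 comparisons with GFP, to -0.33 in NkdΔ30aa (adjusted p = 0.0312). Of the exon bases of *smo*, 27.1% also belong to *CG17078* or *CG11601* on the opposite strand, and the sources used here do not state whether counting used strand, so that its counts may hold reads of these neighbours.

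The kinesin-like scaffold Costal-2, the kinase Fused and Suppressor of fused act together on Cubitus interruptus in the cytoplasm. For *cos* (FBgn0000352, chromosome 2R from 7382176 to 7387115, 4 exons, 4763 bases of exon) the level was 65.6 and 71.6 CPM in GFP disks, 87.6 and 91.5 in Nkd, 77.9 and 84.4 in NkdΔR1S, 111 and 106 in NkdΔ30aa, and 91.4 and 80.5 in NkdΔD6. All libraries with an Nkd form exceeded both GFP libraries. *cos* rose in NkdΔ30aa (log2 0.66, SE 0.10, adjusted p = 0.00138). Its differences of 0.38 in Nkd (adjusted p = 0.0379) and 0.32 in NkdΔD6 (0.0403) passed the adjusted p but not the fold threshold. On the length-offset scale it stood at 0.03 in Nkd, -0.09 in NkdΔ30aa and -0.11 in NkdΔD6.

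*fu* (FBgn0001079, chromosome X from 18657755 to 18661204, 4 exons, 3251 bases of exon) was at 25.6 and 27.1 CPM in GFP disks, 31.7 and 30.5 in Nkd, 27.3 and 29.1 in NkdΔR1S, 43.8 and 42.5 in NkdΔ30aa, and 36.4 and 32.6 in NkdΔD6. Here too each Nkd form exceeded GFP in both libraries, by least in NkdΔR1S. *fu* rose in NkdΔ30aa (log2 0.71, SE 0.10, adjusted p = 0.00127) and passed only the adjusted p in NkdΔD6 (0.39, SE 0.10, adjusted p = 0.0258). Its NkdΔ30aa difference was 0.36 (adjusted p = 0.0194) under the length offsets. *Su(fu)* (FBgn0005355, chromosome 3R from 12689873 to 12691468, 1 exon, 1596 bases) is the shortest of the 10 genes, and its level lay between 70.6 and 86.3 CPM in all libraries. Its groups overlapped GFP throughout, with differences of -0.05 in Nkd, 0.04 in NkdΔR1S, 0.01 in NkdΔ30aa and -0.01 in NkdΔD6 (SE 0.11 each, adjusted p of 0.776 or more).

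The catalytic subunit of protein kinase A, which phosphorylates Cubitus interruptus ahead of its processing and also Smoothened, is encoded by *Pka-C1* (FBgn0000273, chromosome 2L from 9682315 to 9699297, 3 exons, 5725 bases of exon). It was at 31.7 and 42.6 CPM in GFP disks, 58.2 and 69.3 in Nkd, 45.7 and 68.0 in NkdΔR1S, 104 and 98.0 in NkdΔ30aa, and 77.7 and 76.8 in NkdΔD6. Every Nkd form exceeded GFP in both libraries, and the range of 3.29-fold between the lowest and the highest library was the widest of the 10 genes. *Pka-C1* rose in Nkd (log2 0.78, SE 0.20, adjusted p = 0.0397), NkdΔ30aa (1.45, SE 0.20, adjusted p = 0.00128) and NkdΔD6 (1.06, SE 0.20, adjusted p = 0.0122). In NkdΔR1S, where its libraries lay far apart, the difference was 0.62 (SE 0.20, adjusted p = 0.183). Under the offsets it stood at 0.37, 0.53, 0.51 and 0.29 in the same order, and it followed the length trend at r = 0.97 (n = 10).

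Cubitus interruptus, the transcription factor of the pathway, is expressed in anterior cells from *ci* (FBgn0004859, chromosome 4 from 47710 to 57041, 6 exons, 5651 bases of exon). Its level was 279 and 354 CPM in GFP disks, 417 and 402 in Nkd, 329 and 338 in NkdΔR1S, 431 and 393 in NkdΔ30aa, and 327 and 377 in NkdΔD6. The GFP libraries were far apart, and only Nkd and NkdΔ30aa had both libraries above both of them. Their differences were 0.37 (SE 0.13, adjusted p = 0.0745) and 0.38 (SE 0.13, adjusted p = 0.0381), both under the fold threshold. Without GFP replicate 2, the higher of the pair, *ci* passed both thresholds in Nkd (0.68, adjusted p = 0.0458) and in NkdΔ30aa (0.60, adjusted p = 0.0110). Under the offsets its sign was negative in all 4 comparisons with GFP, at -0.53 in NkdΔ30aa (adjusted p = 0.0212) and -0.38 in NkdΔD6 (0.0806), so that neither direction held under both scalings.

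The posterior selector gene *en* (FBgn0000577, chromosome 2R from 11524006 to 11528210, 3 exons, 2792 bases of exon) encodes a homeodomain protein that keeps *ci* off and *hh* on. It was at 60.0 and 63.3 CPM in GFP disks, 51.8 and 56.3 in Nkd, 51.3 and 70.6 in NkdΔR1S, 84.5 and 93.7 in NkdΔ30aa, and 56.9 and 63.0 in NkdΔD6. Only in NkdΔ30aa did both libraries lie above both GFP libraries, and only in Nkd did both lie below them. The difference from GFP in NkdΔ30aa was 0.53 (SE 0.15, adjusted p = 0.0180), under the fold threshold, and 0.34 (adjusted p = 0.124) with the length offsets. With RLE normalization it just passed both thresholds (0.59, adjusted p = 0.0158), as it did by DESeq2 (0.59 on 10 libraries, 0.62 on 4) and by edgeR on the 4 libraries (0.59). *inv*, the neighbouring homeobox gene that acts with *en* in posterior cells, was at 97.4 and 106 CPM in GFP disks, 97.0 and 110 in NkdΔ30aa, and 85.2 and 82.5 in NkdΔD6. It did not follow *en* in NkdΔ30aa (log2 0.03, SE 0.10, adjusted p = 0.812), and with its longer exons of 5919 bases it was at -0.92 (adjusted p = 0.00317) with the length offsets.

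**Figure D2:**
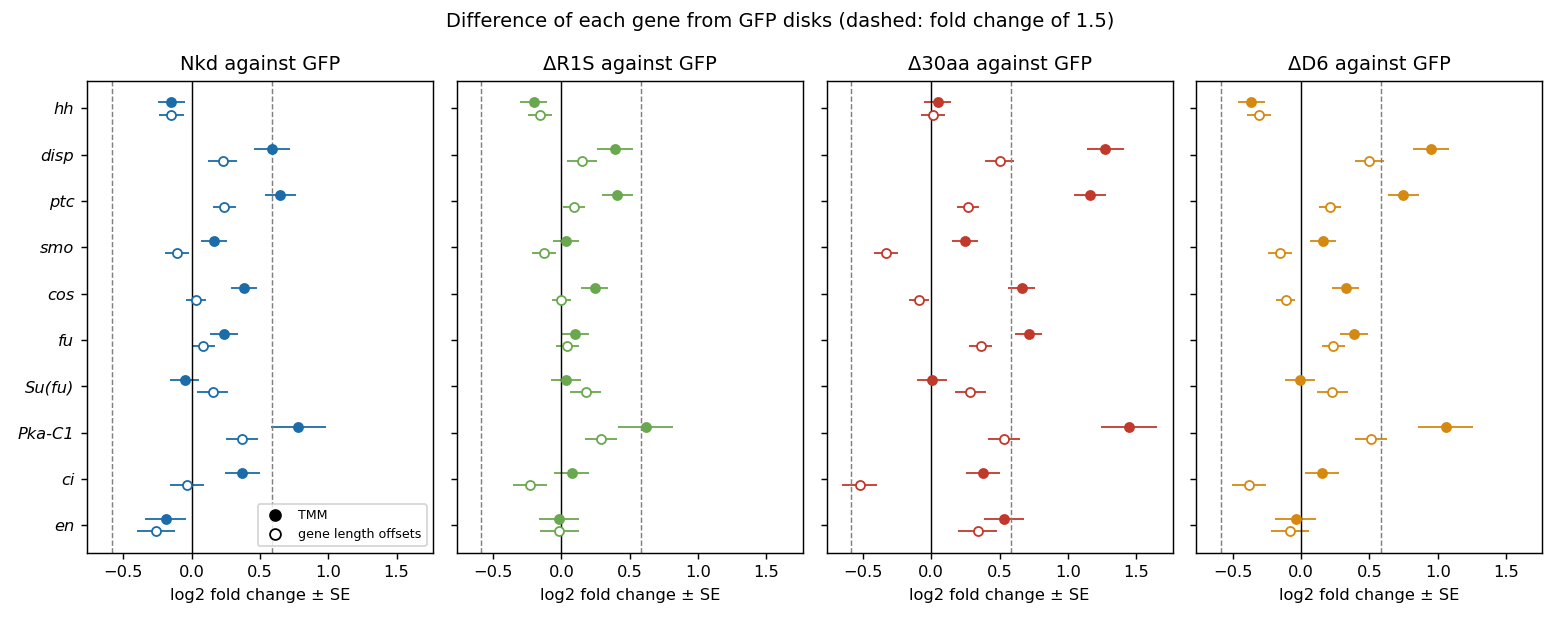
Log2 fold change against GFP with its SE for each gene and Nkd form, by TMM (filled) and with gene length offsets (open); the dashed lines mark a fold change of 1.5. Filled points of *disp*, *ptc* and *Pka-C1* lie beyond the line in Nkd, NkdΔ30aa and NkdΔD6, and no open point does.

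In Nkd disks against GFP disks, 3 of the 10 genes rose (*Pka-C1*, *ptc* and *disp*) and 0 fell, where 3.05% of all genes tested were called higher and 4.51% lower. The receptor and the gene for ligand release were thus higher, while the ligand gene *hh* was not. Both Nkd libraries lay above both GFP libraries for 7 of the 10 (28.2% of all genes) and below for 2 (36.1%). The median log2 fold change of the 10 was 0.30, beside -0.05 over all genes tested. The excess of lower over higher calls among all genes depended on the scaling. With RLE normalization 5.36% of all genes were called higher and 2.57% lower, with a median of 0.04. The same 3 of the 10 were then called, and the median of the 10 was 0.39. Under the length offsets 0 of the 10 were called beside 0.604% of all genes, and the median of the 10 was 0.06. DESeq2 on all libraries called 3 of the 10, beside 7.39% of the 14420 genes with a count. edgeR on the 4 libraries of these groups alone called 0 of the 10, but also 0 of all 8736 genes it tested. Its 0 thus says nothing particular about these genes. The 3 log2 fold changes were 0.45 to 0.62 without GFP replicate 1 and 0.55 to 0.73 without Nkd replicate 2. Without Nkd replicate 1 they were 0.75 for *ptc*, 0.80 for *disp* and 1.002 for *Pka-C1*. All 3 calls were lost in each of these fits, which leave 1 library in a group. Few of all genes were called in them, so that the loss says little about these 3 genes. Nkd replicate 1 and GFP replicate 1 are also the libraries with the most salivary gland RNA, whose part in the result was not tested beyond leaving these libraries out.

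In NkdΔR1S disks 0 of the 10 genes passed against GFP by edgeR, where 0.173% of all genes did. The largest difference was that of *Pka-C1*, followed by those of *ptc* and *disp*, as given above. At an unadjusted p under 0.05 there were 4 of 10, beside 19.9% of all genes, and DESeq2 on all 10 libraries called 1, *Pka-C1*, beside 2.62% of the genes with a count. Both libraries lay above GFP for 5 of the 10 (20.9% of all genes) and below for 1 (26.5%). The median of the 10 was 0.09, beside -0.03 over all genes. The *nkd* level was lower in these disks than in those of the other forms, so that the form of the protein and the amount of its RNA cannot be told apart here.

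In NkdΔ30aa disks 5 of the 10 genes rose against GFP (*Pka-C1*, *disp*, *ptc*, *fu* and *cos*) and 0 fell, where 18.2% of all genes were called higher and 12.8% lower. The 5 include the receptor, the protein for ligand release, the kinase and 2 members of the cytoplasmic complex, while *hh*, *smo*, *Su(fu)*, *ci* and *en* stayed under a threshold. Both libraries lay above GFP for 8 of the 10 (34.6% of all genes) and below for 0 (42.4%). The median was 0.60, beside -0.13 over all genes, and 0.28 with the length offsets. All 5 calls held when any single library of the pair of groups was left out, with log2 fold changes of 1.25 to 1.71 for *Pka-C1*, 1.14 to 1.46 for *disp*, 1.13 to 1.23 for *ptc*, 0.67 to 0.79 for *fu* and 0.60 to 0.76 for *cos*. Under the offsets none of these 5 reached the fold threshold, and 9.65% of all genes were called. *Pka-C1*, *disp*, *fu* and *ptc* then still had an adjusted p under 0.05 (0.0157, 0.0145, 0.0194 and 0.0480), at log2 fold changes of 0.53, 0.50, 0.36 and 0.27.

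**Figure D3:**
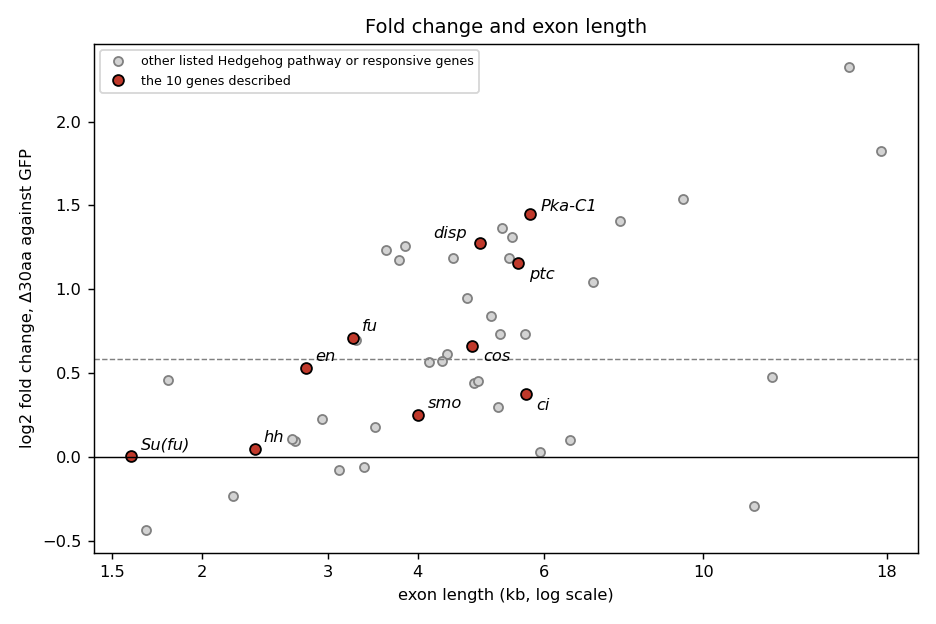
Log2 fold change of NkdΔ30aa against GFP over exon length in kb (log scale) for the 10 genes (red) and for the other listed Hedgehog pathway and responsive genes (grey); the dashed line marks a fold change of 1.5. *Su(fu)* and *hh*, the shortest of the 10, lie near 0, at 0.01 and 0.05, and *Pka-C1*, the longest, is highest at 1.45, although *ci* of similar length is at 0.38.

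In NkdΔD6 disks 3 of the 10 genes rose against GFP (*Pka-C1*, *disp* and *ptc*) and 0 fell, where 10.4% of all genes were called higher and 5.81% lower. *hh* was the only one of the 10 with both libraries below GFP (39.5% of all genes), and 6 had both above (29.0%). The median was 0.24, beside -0.10 over all genes, and 0.06 with the length offsets, with which 0 of the 10 were called beside 5.87% of all genes. *Pka-C1* and *disp* then kept an adjusted p under 0.05 (0.0279 and 0.0239). The 3 calls were lost without GFP replicate 1 (log2 0.71 to 0.86) and without NkdΔD6 replicate 1 (0.72 for *ptc*, 0.92 for *disp* and 1.12 for *Pka-C1*). Few or none of all genes were called in these fits, so that the loss says little about these 3 genes. The 4 comparisons above share the GFP libraries, so their likeness is not independent. The lower sums of myoblast genes and of *Ubx* and *Scr* in both GFP libraries, and the high wing disk marker sums in NkdΔ30aa, go along with these rises over GFP, and their part in them was not tested.

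The design also allows each shortened form to be set against full-length Nkd, which shares the driver. In NkdΔ30aa disks *en* (log2 0.72, SE 0.15, adjusted p = 0.0329) and *disp* (0.69, SE 0.13, adjusted p = 0.0295) were higher than in Nkd disks, and 0 of the 10 were lower, where 5.86% of all genes were called higher and 0.82% lower. *ptc* (0.51, adjusted p = 0.0363) and *fu* (0.47, adjusted p = 0.0340) passed only the adjusted p, and *Pka-C1* (0.67, adjusted p = 0.0744) only the fold threshold. DESeq2, on 10 or on 4 libraries, and edgeR on the 4 libraries called *Pka-C1* besides *en* and *disp* (0.64, 0.62 and 0.59, adjusted p 0.00127 to 0.0352). *ci* (0.01), *Su(fu)* (0.06) and *smo* (0.08) differed by less than their SE of 0.10 to 0.13. Neither call held when any of the 4 libraries was left out, *en* then lying between 0.56 and 0.71 and *disp* between 0.47 and 0.73. Far fewer of all genes were called in those fits too. The call of *en* was also lost with RLE normalization (0.70, adjusted p = 0.0502) and with no filter (0.63, 0.0666), and that of *disp* with no filter. With the length offsets *en* was at 0.60 (adjusted p = 0.0711) and *disp* at 0.27 (0.184), where 0.939% of all genes were called.

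Against Nkd, 0 of the 10 genes passed in NkdΔR1S by edgeR (0.184% of all genes did), with differences between -0.30 for *ci* and 0.17 for *en* and a lowest adjusted p of 0.308. In NkdΔD6, 0 of the 10 passed (0.13% of all genes), between -0.22 for *ci* and 0.36 for *disp*, with a lowest adjusted p of 0.396. At an unadjusted p under 0.05 there was 1 of 10 in each, *ci* in NkdΔR1S (15.7% of all genes) and *disp* in NkdΔD6 (12%), and DESeq2 on all libraries called 0 in both, beside 1.78% and 0.756% of the genes with a count. The SE of these differences was between 0.10 and 0.20, and values that miss the threshold do not show that the forms act alike.

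**Figure D4:**
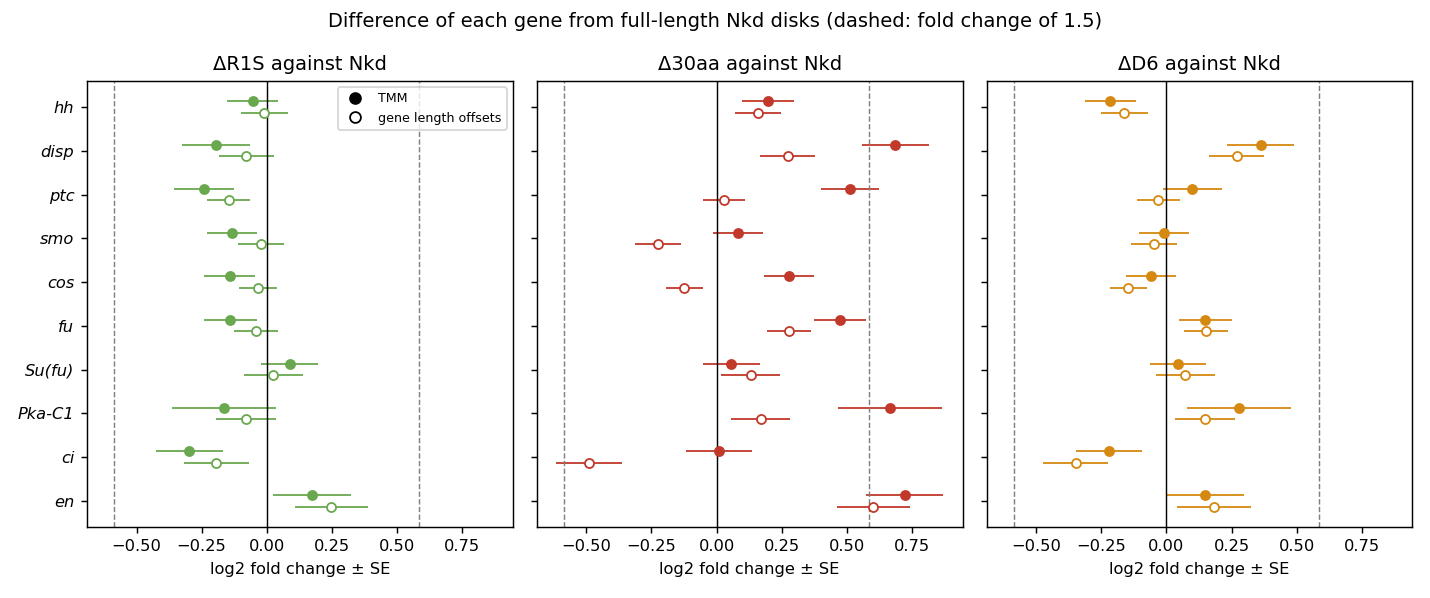
Log2 fold change against full-length Nkd with its SE for each gene and shortened form, by TMM (filled) and with gene length offsets (open); the dashed lines mark a fold change of 1.5. In NkdΔ30aa *en*, *disp* and *Pka-C1* lie beyond the line by TMM, and only *en*, at 0.60, does with the offsets, while all points of NkdΔR1S and NkdΔD6 lie within it.

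Between genes, levels were compared per kb of exon. In GFP disks the order was *ci* (56.1 CPM per kb), *Su(fu)* (49.4), *hh* (41.7), *en* (22.1), *smo* (19.3), *cos* (14.4), *ptc* (9.99), *fu* (8.11), *disp* (6.94) and *Pka-C1* (6.48). The libraries of *ci* and *Su(fu)* overlapped, as did those of *disp* and *Pka-C1*. In all 5 groups *ci*, *Su(fu)* and *hh* were the 3 highest in that order. In NkdΔ30aa disks *fu* was lowest, at 13.3 CPM per kb, and *smo* (23.0), *cos* (22.8) and *ptc* (22.3) overlapped their neighbours, so that *ptc* stood level with genes it lay under in GFP disks. The length trend was not removed from these levels, and *ptc* (5521 bases of exon) is longer than *smo* (4008) and *cos* (4763).

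Ratios of counts within a library do not depend on the scaling between libraries, although they do not remove the length trend. The ratio of posterior to anterior transcripts, *hh*, *en* and *inv* over *ci*, was 0.919 and 0.754 in GFP disks, 0.599 and 0.603 in Nkd, 0.739 and 0.815 in NkdΔR1S, 0.645 and 0.793 in NkdΔ30aa, and 0.658 and 0.599 in NkdΔD6. Nkd and NkdΔD6 lay below both GFP libraries, and the other forms overlapped them. With 2 libraries a group, a two-sided exact permutation test of these ratios cannot give a p below 0.333. *ptc* over *hh* was 0.544 and 0.573 in GFP disks and between 0.781 and 1.35 in all others. *en* over *inv* was 0.616 and 0.599 in GFP disks, 0.872 and 0.848 in NkdΔ30aa, and 0.477 to 0.764 elsewhere.

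**Figure D5:**
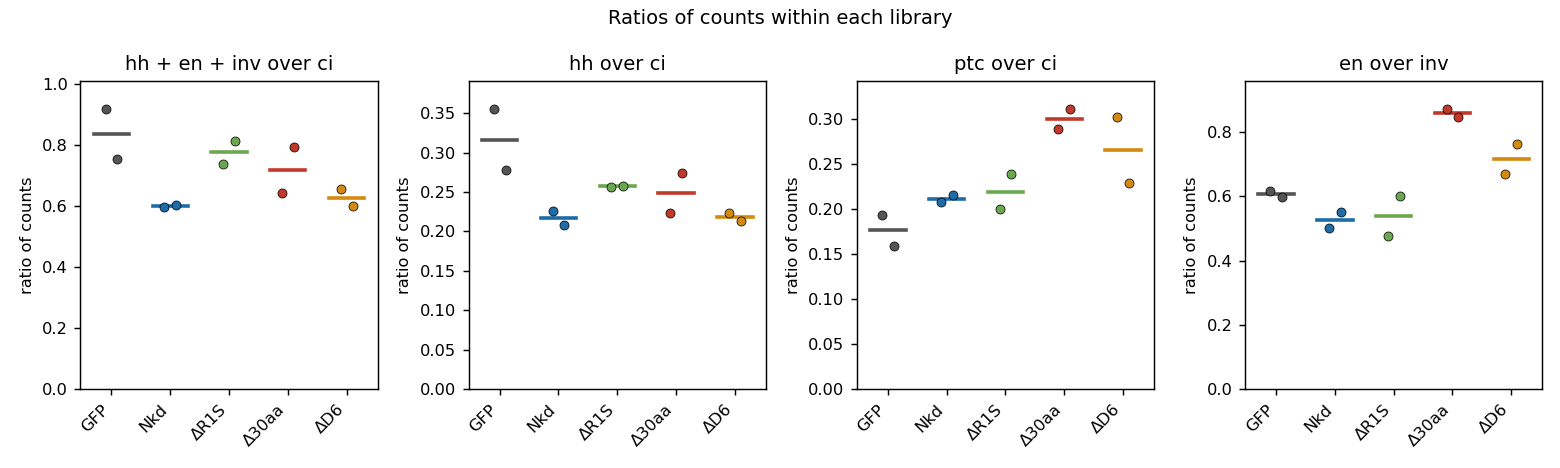
Ratios of raw counts within each library, on axes that start at 0 (points, single libraries; lines, mean of 2). The ratio of *en* to *inv* is highest in NkdΔ30aa, at 0.872 and 0.848, and *ptc* over *ci* is lowest in GFP, at 0.193 and 0.159.

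Of 29 other Hedgehog pathway genes, all of which were tested, 5 rose in Nkd disks against GFP and 0 fell, where 3.05% of all genes were called higher and 4.51% lower. Among them *wdb*, a regulatory subunit of protein phosphatase 2A, stood at log2 0.86, *mgl*, a megalin-like endocytic receptor, at 0.81, and *botv*, an enzyme of heparan sulfate synthesis needed for Hedgehog to spread, at 0.71. In NkdΔR1S 0 passed by edgeR, beside 0.173% of all genes, and 12 of 29 had an unadjusted p under 0.05, beside 19.9%. DESeq2 on all libraries called 10 higher in Nkd and 4 in NkdΔR1S, beside 7.39% and 2.62% of the genes with a count called in either direction. DESeq2 on 4 libraries called 9 and 0, beside 5.84% and 1.11% of the genes with a count in those libraries. edgeR on 4 libraries called 0 in both, as it did over all 8736 and 8663 genes it tested there. In NkdΔ30aa 15 rose and 0 fell, beside 18.2% and 12.8% of all genes, led by *nej*, the CBP coactivator of Cubitus interruptus (2.32), *mgl* (1.83) and the ubiquitin ligase gene *Ubr3* (1.54). In NkdΔD6 9 rose, beside 10.4% of all genes, led by *nej* (1.66), *mgl* (1.13) and *wdb* (1.12), and 1 fell, beside 5.81%, *rasp* (-0.59, adjusted p = 0.0122), the acyltransferase that adds palmitate to Hedgehog. The call of *rasp* held only with the replicate block. With RLE normalization, no filter, DESeq2 on 10 or 4 libraries and edgeR on 4 it lay between -0.54 and -0.51, under the fold threshold, it was -0.38 with the length offsets, and it was lost without any 1 of the 4 libraries (-0.71 to -0.37, adjusted p 0.0692 to 0.124). The medians of the list were 0.36, 0.25, 0.70 and 0.34 in the 4 comparisons with GFP, beside -0.05, -0.03, -0.13 and -0.10 over all genes tested, and 0.06, 0.06, -0.03 and -0.00 with the length offsets, beside 0.01, -0.00, -0.03 and -0.00. Against Nkd, 5 rose in NkdΔ30aa, beside 5.86% of all genes, with *nej* (1.47), the ubiquitin ligase gene *Herc4* (1.04) and *mgl* (1.02) in front. In NkdΔR1S and NkdΔD6 0 passed against Nkd, beside 0.184% and 0.13% of all genes. Without GFP replicate 1 the medians of the list against GFP were 0.26 in Nkd, 0.56 in NkdΔ30aa and 0.34 in NkdΔD6. The calls in Nkd and NkdΔD6 were then lost, while most of those in NkdΔ30aa held. Most or all calls were also lost in Nkd without either Nkd replicate and in NkdΔD6 without its replicate 1. Those of NkdΔ30aa against Nkd were lost without any 1 of the 4 libraries. Without NkdΔD6 replicate 2 a part of the NkdΔD6 calls was lost. Few of all genes were called in the fits where most or all calls of the list were lost. Once the length trend was removed, 0 and 0 passed in Nkd and NkdΔR1S against GFP, where 0.604% and 0.216% of all genes were called. In NkdΔ30aa 5 were then higher and 1 lower, where 9.65% of all genes were called, and in NkdΔD6 2 were higher and 1 lower, where 5.87% were. Of these, 4 in NkdΔ30aa and 2 in NkdΔD6 were among the genes called by TMM.

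Of 7 genes that respond to Hedgehog signaling in the disk (*dpp*, *kn*, *rdx*, *ara*, *caup*, *vn* and *inv*), 1 rose in Nkd against GFP, *vn* (log2 0.92, SE 0.19, adjusted p = 0.0255), the gene of an EGF receptor ligand, where 3.05% of all genes were called higher. In NkdΔ30aa 3 rose, beside 18.2% of all genes, *vn* (1.37), *dpp*, the BMP-type ligand of the compartment boundary (0.73), and *kn*, a transcription factor of the central wing (0.62), and 0 fell. In NkdΔD6 *vn* alone rose (0.78), beside 10.4% of all genes, and in NkdΔR1S 0 passed by edgeR, beside 0.173%. Against Nkd 0 passed in NkdΔR1S, NkdΔ30aa and NkdΔD6, beside 0.184%, 6.68% and 0.13% of all genes in either direction. The call of *vn* in Nkd was lost without GFP replicate 1 (0.67), Nkd replicate 1 (1.03) or Nkd replicate 2 (0.99). That in NkdΔD6 was lost without GFP replicate 1 (0.53), NkdΔD6 replicate 1 (0.78) or NkdΔD6 replicate 2 (0.90). Few or none of all genes were called in these fits, apart from that without NkdΔD6 replicate 2. In NkdΔ30aa *dpp* and *vn* stayed called whichever of the 4 libraries was left out, whereas *kn* was lost without GFP replicate 1 (0.40), NkdΔ30aa replicate 1 (0.63) or NkdΔ30aa replicate 2 (0.62, adjusted p 0.107 to 0.133). On the length-offset scale 0 were higher in any comparison, while 2 were lower in NkdΔ30aa (*rdx* and *inv*) and 1 in NkdΔD6 (*inv*) against GFP, beside 9.65% and 5.87% of all genes called in either direction. Among the 7 genes, only *vn* thus shared the rise of *ptc* by TMM in all of Nkd, NkdΔ30aa and NkdΔD6. *dpp* and *kn* rose in NkdΔ30aa only, and *rdx*, *ara*, *caup* and *inv* in none of these comparisons. *inv* stood at 0.02, 0.03 and -0.28 in them.

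Across the 10 libraries, the log2 level of *ptc* was most like those of *Mhcl* (Pearson r = 0.99), *Prp5* (0.99) and *Mekk1* (0.99) among 6924 genes with a mean of at least 5 CPM. After removal of the length trend these values were -0.25, 0.23 and 0.91. For *hh* the closest genes were *CG8578* (0.91), *pck* (0.89) and *elB* (0.89), and for *ci* they were *pan* (0.97), *TM9SF3* (0.95) and the gene FBgn0039959 (0.95). After removal of the trend these stood at 0.98 for *pan*, -0.07 for *TM9SF3* and 0.97 for FBgn0039959. *pan* encodes the Wingless pathway transcription factor and lies near *ci* on chromosome 4. These 3 genes have 14425, 2653 and 8403 bases of exon. Whether the removal itself made long genes more alike was not tested. Among the 10 genes themselves, *ptc* and *cos* were alike at r = 0.97 before and -0.26 after removal of the trend, *fu* and *disp* at 0.95 and 0.88, and *smo* and *ci* at 0.91 and 0.91. These values describe 10 libraries that share groups, normalization and the length trend, and carry no p.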

How the data were processed

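RNA-seq libraries (NEBNext Ultra kit) of wing disks were sequenced as paired-end reads. From HISAT2 2.2.1 alignments to BDGP6 the authors made raw counts for each gene by featureCounts, and deposited these counts together with exon length in bases. Per their methods DESeq2 gave the fold changes of the study, with the fold threshold of 1.5 and adjusted p threshold of 0.05 used here. No source used here states the featureCounts version, or whether it used strand or counted fragments.

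Of 17807 gene IDs 17710 matched a symbol, and of 14420 genes with a count 9264 passed filterByExpr. edgeR 4.0.16 in R 4.3.3 tested the counts (TMM, robust quasi-likelihood fit, Benjamini-Hochberg adjusted p) with group as the factor and all 10 libraries together, leaving 5 residual degrees of freedom. SE is the size of a log2 fold change divided by the square root of F. The code was tested on simulated data. Replicates differed by more than sampling noise (chi-square per degree of freedom 18.7 to 92.7). Tried in its place were RLE scaling, all genes with a count, DESeq2 1.42.0 on all libraries or on the 4 compared, edgeR on those 4, replicate number as a block, leaving out each library, and offsets that remove each library's lowess trend (span 0.3, prior count 2) of log expression on exon length.

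Named genes are the 10 genes in every comparison, *nkd*, *inv*, up to 3 called genes of largest change per direction from each of the lists of other pathway genes and of responsive genes, and the 3 genes most like *ptc*, *hh* and *ci*. Genes of overlap, marker genes and pairs of the 10 genes were also named after their values were seen. The 10 genes, the lists and the tests were chosen with earlier results of these data known.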

Additional observations from a re-analysis of the deposited data

Results flagged for a closer look

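The direct comparison of NkdΔ30aa with full-length Nkd picked out 2 of the 10 genes as different between Nkd forms that share the same control, where 5.86% of all genes were called higher and 0.82% lower. *en* was at 84.5 and 93.7 CPM in NkdΔ30aa disks and at 51.8 and 56.3 CPM in Nkd disks, a log2 fold change of 0.72 (SE 0.15, adjusted p = 0.0329 by edgeR), higher in 2 of 2 libraries. *disp* was at 84.7 and 79.3 CPM against 46.8 and 55.1 CPM, a log2 fold change of 0.69 (SE 0.13, adjusted p = 0.0295), also higher in 2 of 2 libraries. Neither call held when any 1 of the 4 libraries was left out, where far fewer of all genes were called too. That of *en* was also lost with RLE normalization (adjusted p = 0.0502), with no filter and with the length offsets. The call of *disp* was lost with no filter and with the offsets. *en* has 2792 bases of exon and *disp* 4884.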

How the results depend on the processing

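The number of the 10 genes called was 3 for Nkd, 0 for NkdΔR1S, 5 for NkdΔ30aa and 3 for NkdΔD6 against GFP, and 2 for NkdΔ30aa against Nkd. In the same order 7.57%, 0.173%, 31.0%, 16.2% and 6.68% of all genes were called in either direction. The length offsets took each count of the 10 genes to 0, beside 0.604%, 0.216%, 9.65%, 5.87% and 0.939% of all genes. DESeq2 on 10 libraries took the count of NkdΔR1S against GFP to 1, beside 2.62% of the genes with a count. edgeR on the 4 libraries of Nkd and GFP called 0 of the 10 and 0 of all 8736 genes it tested. RLE normalization, DESeq2 on 10 and on 4 libraries and edgeR on 4 called 6 in NkdΔ30aa against GFP, with *en* added. In that order 29.9%, 19.9%, 21.1% and 32.1% of all genes in each fit were called there. Both DESeq2 runs and edgeR on 4 called 3 in NkdΔ30aa against Nkd, with *Pka-C1* added, beside 6.79%, 7.06% and 7.81%. NkdΔ30aa against Nkd gave 1 gene (*disp*) with RLE normalization and 0 with no filter, beside 3.54% and 1.07%. Leaving out 1 library in turn gave 0 to 4 genes for Nkd, 5 to 6 for NkdΔ30aa and 0 to 3 for NkdΔD6 against GFP, and 0 to 0 for NkdΔ30aa against Nkd. With 2 libraries a group, the spread between replicates rather than depth limits these calls. Few or none of all genes were called in the fits where leaving out 1 library gave 0 genes.

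With the replicate number as a block the counts were 3, 0, 5 and 3 against GFP and 3 for NkdΔ30aa against Nkd, where *Pka-C1* joined *en* and *disp*. In that order 6.58%, 0.119%, 31.0%, 15.9% and 7.28% of all genes were called. The replicate numbers share no stated origin, and the correlation of replicate deviations between groups was -0.22 to 0.37, so that the numbers were not taken as pairs.

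Signs turned mostly for differences that were not called. The length offsets gave, against GFP in Nkd, NkdΔR1S, NkdΔ30aa and NkdΔD6, -0.10, -0.13, -0.33 and -0.15 for *smo* and -0.035, -0.23, -0.53 and -0.38 for *ci*. They gave -0.000503 (NkdΔR1S), -0.091 (NkdΔ30aa, called by TMM at 0.66) and -0.11 (NkdΔD6) for *cos*, and 0.15 (Nkd) and 0.23 (NkdΔD6) for *Su(fu)*. Against Nkd they gave -0.23 for *smo*, -0.49 for *ci* and -0.12 for *cos* in NkdΔ30aa, and -0.031 for *ptc* in NkdΔD6. RLE normalization, no filter, DESeq2 on 10 libraries and DESeq2 on 4 gave, in that order, 0.032, 0.050, 0.034 and 0.014 for *Su(fu)* in Nkd against GFP (-0.05 by TMM), 0.068, 0.072, 0.070 and 0.073 for it in NkdΔD6 (-0.01), 0.044, 0.054, 0.046 and 0.034 for *en* in NkdΔR1S (-0.02), 0.036, 0.040, 0.037 and 0.040 for *en* in NkdΔD6 (-0.04), and -0.017, -0.083, -0.018 and -0.039 for *ci* in NkdΔ30aa against Nkd (0.01). edgeR on 4 libraries gave 0.050 for *Su(fu)* in NkdΔD6, 0.0086 and 0.017 for *en* in NkdΔR1S and NkdΔD6, and, against Nkd in NkdΔ30aa, -0.073 for *ci* and -0.024 for *Su(fu)*. There, no filter also gave -0.0083 for *smo* and -0.034 for *Su(fu)*. The causes were not tested.

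Leaving out 1 library in turn moved these uncalled differences across 0. Against GFP the ranges were -0.15 to 0.021 (*hh*) and -0.12 to 0.15 (*Su(fu)*) in Nkd, -0.037 to 0.19 (*smo*), -0.088 to 0.34 (*ci*), -0.034 to 0.20 (*Su(fu)*) and -0.24 to 0.28 (*en*) in NkdΔR1S, -0.029 to 0.13 (*hh*) and -0.066 to 0.12 (*Su(fu)*) in NkdΔ30aa, and -0.012 to 0.43 (*ci*), -0.084 to 0.19 (*Su(fu)*) and -0.081 to 0.11 (*en*) in NkdΔD6. Against Nkd they were -0.53 to 0.083 (*Pka-C1*) and -0.12 to 0.37 (*en*) in NkdΔR1S, -0.076 to 0.064 (*smo*), -0.14 to -0.016 (*ci*) and -0.043 to -0.018 (*Su(fu)*) in NkdΔ30aa, and -0.021 to 0.16 (*ptc*), -0.11 to 0.037 (*smo*) and -0.13 to 0.15 (*Su(fu)*) in NkdΔD6. The log2 ratio of posterior to anterior counts in NkdΔ30aa over GFP was -0.22, and 0.14 for *en* over *ci* alone.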

Other observations

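*ci* lies on chromosome 4, a small chromosome that is largely heterochromatic. Of the 82 genes tested there, 1 was higher and 6 were lower in Nkd disks against GFP, where 3.05% and 4.51% of all genes tested were. In NkdΔ30aa 14 and 11 were (18.2% and 12.8% of all genes), in NkdΔD6 3 and 14 (10.4% and 5.81%), and in NkdΔR1S 0 and 0 by edgeR (0.173% in either direction). Their median log2 fold changes were -0.04 in Nkd, -0.16 in NkdΔ30aa and -0.21 in NkdΔD6, beside -0.05, -0.13 and -0.10 over all genes tested. *ci*, at 0.37, 0.38 and 0.15 in these comparisons, lay above the median of its chromosome in each. The median exon length was 4174 bases on chromosome 4 and 2020 bases over all genes tested.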
